A study of Mus musculus with 8 samples.

Results

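The cell cycle and proliferation genes described here are 35 mouse genes that drive or accompany DNA replication and cell division. They were found by symbol among the probes of an Agilent expression array, through the RefSeq transcript that each probe names. All 35 were on the array, with 50 of its 39429 probes, and a gene with several probes was represented by the 1 with the highest mean over the arrays. Total RNA from the myocardium, the muscular wall of the heart, of male untreated mice was hybridised to 8 arrays, 1 per sample. Of these, 3 were labelled NPRA-/- and 5 were labelled NPRA+/+. The labels count all 8 as biological repetitions, yet their source names give NPRA+/+ replicates 1, 2 and 3 the same replicate number, so the 5 NPRA+/+ arrays may be fewer than 5 independent samples. NPRA, encoded by Npr1, is the natriuretic peptide receptor that turns atrial and B-type natriuretic peptide into a cyclic GMP signal. The labels name a conditional, loxP-flanked NPRA allele, and the title of the series calls the deletion restricted to the heart. The sources used here do not give the Cre driver, the age of the mice, or whether the NPRA+/+ mice carried a loxP-flanked allele or Cre. The series text speaks of an array for m6A, a methylation of RNA, but the series is typed as expression profiling and its signals were read as transcript levels.

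A cell that divides passes through G1, copies its DNA in S phase, and separates the copies in mitosis. D-type cyclins with the kinases Cdk4 and Cdk6 start the passage through G1, cyclins E and A with Cdk2 open S phase, and cyclin B with Cdk1 drives mitosis. The inhibitors p21 (Cdkn1a) and p27 (Cdkn1b) hold these kinases back. Genes of replication are switched on by E2F factors around the start of S phase, and genes of mitosis later, in G2 and mitosis, through a promoter element called the cell cycle genes homology region (CHR), often with CCAAT boxes nearby. Most cardiomyocytes of the adult mouse no longer divide, and dividing cells of the adult heart are found mainly among endothelial cells, fibroblasts and immune cells.

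These promoter classes can be read in the sequences of the members. The RefSeq table (GRCm38.p6, from 250 bases before to 50 bases after each start site) held promoters for 29 of the 35 genes and had no entry for Ccnd1, Ccnd2, Ccne2, Ccna2, Mcm4 and Aurkb. The CHR was searched as TTTGAA or TTCGAA, the E2F motif as TTTCCCGC, TTTGGCGC or TTCCCGCC, and the CCAAT box as CCAAT, each on both strands. The E2F strings that hold CCCGC overlap, and a promoter that held both was counted once. A CHR string was in 9 of the 12 promoters of proliferation markers, mitotic genes and spindle genes (75%), in 2 of the 10 promoters of replication and nucleotide genes (20%) and in 21.7% of 27025 promoters of all genes. An E2F string was in 0 of those 12 promoters, in 6 of those 10 (60%) and in 3.69% of all promoters. The CCAAT box was in 21 of the 29 members (72.4%) and in 41.1% of all promoters. A match describes the letters of the window and is not evidence that a factor binds there.

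The 150 bases before the start site are shown for 4 genes of the first kind, 2 proliferation markers, 1 mitotic kinase and 1 spindle gene, with CHR and CCAAT strings of either strand in capitals. Each reads 5′ to 3′ on the strand of its gene.
Mki67 (chr7:135716380-135716529, minus strand): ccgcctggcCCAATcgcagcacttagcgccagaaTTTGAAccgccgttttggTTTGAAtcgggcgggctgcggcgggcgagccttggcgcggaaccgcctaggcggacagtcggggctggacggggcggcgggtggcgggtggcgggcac
Top2a (chr11:99024190-99024339, minus strand): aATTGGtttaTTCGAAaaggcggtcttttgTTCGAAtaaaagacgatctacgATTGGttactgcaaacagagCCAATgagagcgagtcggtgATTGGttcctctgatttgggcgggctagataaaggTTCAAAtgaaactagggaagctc
Cdk1 (chr10:69352913-69353062, minus strand): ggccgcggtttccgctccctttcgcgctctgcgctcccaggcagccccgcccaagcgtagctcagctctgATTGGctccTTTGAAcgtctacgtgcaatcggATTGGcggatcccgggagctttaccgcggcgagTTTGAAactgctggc
Cdc20 (chr4:118437344-118437493, minus strand): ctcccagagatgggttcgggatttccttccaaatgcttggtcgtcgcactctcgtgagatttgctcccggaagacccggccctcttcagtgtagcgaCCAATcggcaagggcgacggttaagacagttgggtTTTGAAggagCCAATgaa
The same stretch follows for 3 genes of replication and nucleotide supply, with E2F strings of either strand in capitals.
Cdc6 (chr11:98908001-98908150, plus strand): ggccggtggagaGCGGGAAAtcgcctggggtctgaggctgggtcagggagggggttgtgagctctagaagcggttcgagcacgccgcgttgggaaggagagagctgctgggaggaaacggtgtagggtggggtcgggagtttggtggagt
Mcm6 (chr1:128359706-128359855, minus strand): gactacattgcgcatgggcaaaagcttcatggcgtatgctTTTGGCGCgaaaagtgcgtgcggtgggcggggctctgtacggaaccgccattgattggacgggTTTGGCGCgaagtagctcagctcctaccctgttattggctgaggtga
Rrm1 (chr7:102441545-102441694, plus strand): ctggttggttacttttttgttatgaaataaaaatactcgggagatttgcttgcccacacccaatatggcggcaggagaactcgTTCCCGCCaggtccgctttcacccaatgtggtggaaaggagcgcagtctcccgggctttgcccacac
Bub1, Plk1 and Aurka held their CHR string only after the start site, 15, 31 and 33 bases past it. The promoter of Birc5 held none of the CHR or E2F strings searched.

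Levels are log2 signals relative to the 75th percentile of their own array, on which a step of 1 is a factor of 2 in signal. Between 79.5% and 92.6% of probes were well above background per array, the 75th percentile lay between 775 and 1253 intensity units, and the precision is limited by how few arrays there are. Scans were made on 4 days, of which only day 1 held both genotypes, with replicates 2 and 3 of each on a slide per genotype. NPRA-/- replicate 1 was scanned on day 3 and NPRA+/+ replicate 1 on day 4. Npr1 lay near background at -6.42 to -5.53 on the NPRA-/- arrays and at -6.55 to -4.77 on the NPRA+/+ arrays, a fitted change of 0.03 ± 0.40 (SE; limma, adjusted p = 0.978). Where this probe lies relative to the deleted exons was not stated, so it does not check the labels, and every direction below rests on them. All 9 cardiomyocyte markers were well above background on every array. Their median stood 1.24 above the mean over the arrays on NPRA-/- replicate 1 and 1.00 above it on NPRA+/+ replicate 1, and between -0.95 and -0.02 on the other arrays. After quantile normalization it was 0.15 and 0.12 on those replicate 1 arrays, and between -0.19 and 0.17 on the others. Over the 35329 probes tested the fitted change, NPRA-/- over NPRA+/+, had a median of 0.21 that depended on brightness, from 0.77 in the dimmest of 20 bins of mean signal to 0.01 in the 17th. Changes relative to probes of like signal are therefore given beside fitted ones, while each p tests the fitted change against 0.

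Most of the cell cycle genes were measurable in the myocardium. Of the 35, 32 were well above background on all 8 arrays. Cdk6, a G1 kinase, was not on NPRA-/- replicate 1 and NPRA+/+ replicate 1, and Bub1, a spindle checkpoint kinase, was not on NPRA+/+ replicates 2 and 4. Aurkb, the kinase of the chromosomal passenger complex, was above background on 1 array alone, NPRA+/+ replicate 3, at -6.10. Its signal lay between -8.00 and -7.93 on the NPRA-/- arrays and between -8.43 and -5.84 on the NPRA+/+ arrays, and it was left out of the tests. RNA from whole tissue cannot tell a smaller number of cells of a type from less RNA per cell.

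None of the 34 genes tested passed the threshold between the genotypes. limma called 0 of them higher and 0 lower in NPRA-/- myocardium at an adjusted p under 0.05, where it called 0.32% of all probes tested higher and 0.0283% lower. With the repetition number of the labels as a replicate block limma called 0 probes higher and 0 lower, and with the number in the source names 1 higher and 21 lower, with 0 members among them. Without the block the smallest adjusted p of a member was 0.157. At an unadjusted p under 0.05, 1 member was higher (Ccnb1) and 1 lower (Mcm2), against 18.3% and 1.36% of all probes. Every NPRA-/- array lay above every NPRA+/+ array for 0 members and below for 1 (Mcm2), against 14.1% and 1.29% of all probes. With the NPRA+/+ arrays of 1 source name number averaged limma called 0 probes and 0 members. The fitted change was positive for 22 members and negative for 12, where 74.97% of all probes were positive, and its median was 0.16 beside 0.21 over all probes. Relative to probes of like signal the median was -0.07 and 14 of 34 members were positive. With quantile normalization, which removes the shift of all probes, the median was -0.07. Within scan day 1 alone it was -0.11, and 2 members (Ccne2 and Tyms) were called higher and 0 lower, where 15.6% and 1.37% of all probes were. That fit has 2 arrays a genotype, and its NPRA+/+ arrays share a source name number. Genotype and slide, as inferred from scan time, cannot be told apart in it.

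**Figure D1:**
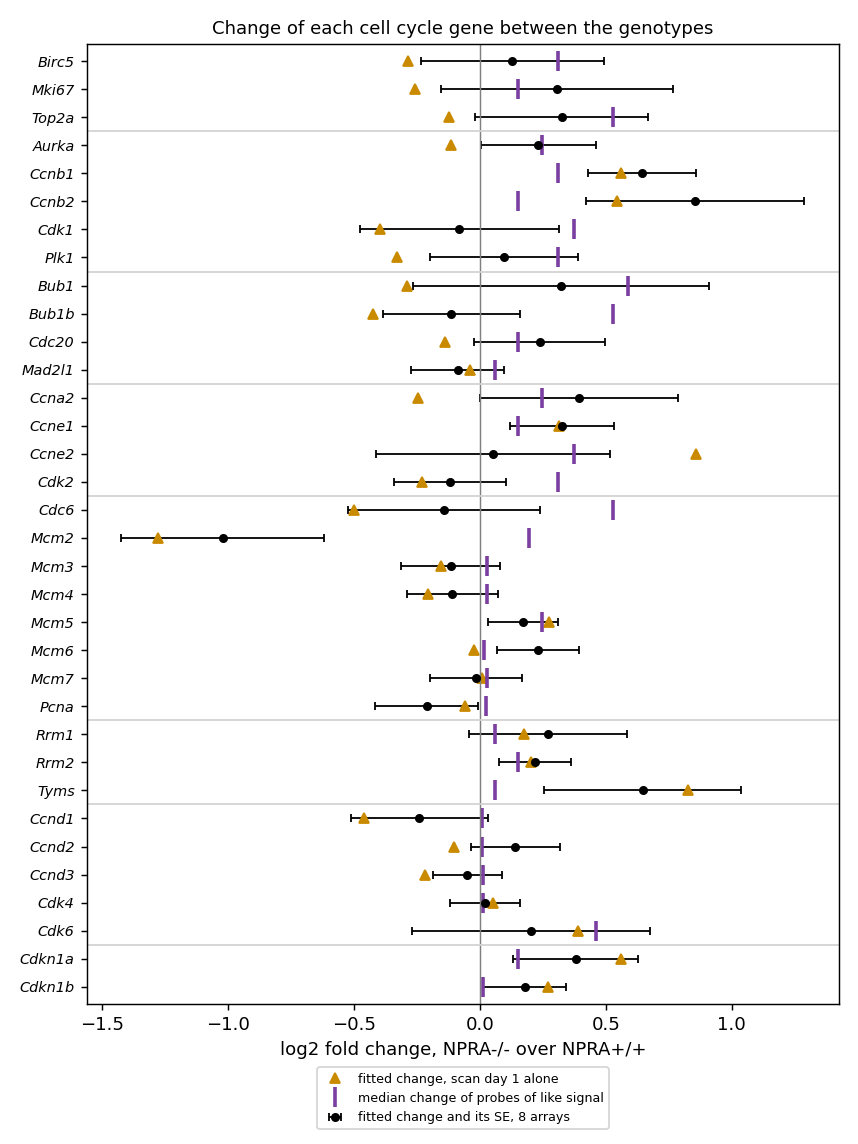
Fitted log2 change of the 34 cell cycle genes tested, NPRA-/- over NPRA+/+, grouped by role from proliferation markers at the top to CDK inhibitors at the bottom. Black points with bars are the fit over 8 arrays with its SE, triangles are the fit on scan day 1 alone (2 arrays a genotype), and upright marks are the median change of probes of like signal; Mcm2 lies lowest at -1.02 and Ccnb2 highest at 0.86.

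The 3 proliferation markers did not differ between the genotypes beyond their spread. Mki67 encodes Ki-67, which coats mitotic chromosomes and is the standard marker of cycling cells. It stood at -0.83, -2.20 and -1.99 on the NPRA-/- arrays 1 to 3, and at -1.53, -2.70, -0.98, -2.45 and -2.25 on the NPRA+/+ arrays 1 to 5. NPRA-/- replicate 1 and NPRA+/+ replicate 3 were the 2 highest arrays, so each genotype had 1 array far above most of its others. Mean levels of -1.68 ± 0.74 (SD, n = 3) in NPRA-/- and -1.98 ± 0.71 (SD, n = 5) in NPRA+/+ myocardium gave a fitted change of 0.31 ± 0.46 (SE; limma, adjusted p = 0.766). The second Mki67 probe was highest on the same 2 arrays, at -0.87 on NPRA-/- replicate 1 and -0.96 on NPRA+/+ replicate 3, with the others between -3.27 and -2.12.

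Top2a encodes topoisomerase IIα, which untangles DNA before chromosomes separate. It stood at -4.10, -4.83 and -4.70 on the NPRA-/- arrays, and at -4.74, -5.33, -3.96, -5.41 and -4.92 on the NPRA+/+ arrays. The genotypes overlapped, and the same 2 arrays were highest (fitted change 0.33 ± 0.34; limma, adjusted p = 0.651). Birc5, survivin, is a subunit of the chromosomal passenger complex and stood at -2.49, -3.08 and -2.88 on the NPRA-/- arrays and at -2.78, -3.50, -1.89, -3.35 and -3.22 on the NPRA+/+ arrays. NPRA+/+ replicate 3 was the highest again, and the fitted change was 0.13 ± 0.36 (limma, adjusted p = 0.885). Both other Birc5 probes were highest on NPRA-/- replicate 1 instead, at -3.41 and -4.77. Their fitted changes were 0.56 ± 0.26 and 1.22 ± 0.57 (limma, adjusted p = 0.284 and 0.283). Relative to probes of like signal these were 0.15 and 0.45. On every NPRA-/- array the dimmer of them stood well above background, and among the NPRA+/+ arrays on replicate 3 alone.

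Among the mitotic cyclins and kinases the B cyclins had the 2 most positive fitted changes, and those of the kinases lay closer to 0. Ccnb1, the main cyclin partner of Cdk1, stood at -2.63, -2.52 and -2.47 on the NPRA-/- arrays and at -3.22, -3.51, -2.61, -3.12 and -3.48 on the NPRA+/+ arrays. The 3 NPRA-/- arrays lay close together and above 4 of the 5 NPRA+/+ arrays, with NPRA+/+ replicate 3 among them. It averaged -2.54 ± 0.08 in NPRA-/- (SD, n = 3) and -3.19 ± 0.36 in NPRA+/+ myocardium (SD, n = 5), with a fitted change of 0.64 ± 0.21 (SE; limma, adjusted p = 0.157), of which 0.33 remained relative to probes of like signal. Its other 2 probes had fitted changes of 0.32 and 0.46, or -0.27 and 0.0008 relative to probes of like signal. Ccnb2, the second B cyclin, stood at -1.85, -0.76 and -0.84 on the NPRA-/- arrays and at -2.70, -1.58, -1.11, -2.74 and -1.90 on the NPRA+/+ arrays. It had the most positive fitted change of the members, 0.86 ± 0.43 (limma, adjusted p = 0.322), and NPRA-/- replicate 1 lay among the NPRA+/+ arrays.

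Cdk1, the kinase that starts mitosis, stood at -3.57, -4.35 and -3.98 on the NPRA-/- arrays and at -3.32, -4.56, -2.97, -4.36 and -4.22 on the NPRA+/+ arrays. The fitted change was -0.08 ± 0.40 (limma, adjusted p = 0.937), or -0.46 relative to probes of like signal. The widest gap was within a genotype, between NPRA+/+ replicates 3 and 2. A dimmer Cdk1 probe, above background on 5 of the 8 arrays and with a fitted change of -0.95 ± 1.05 (limma, adjusted p = 0.667), was far higher on NPRA+/+ replicate 1 (-2.48) than on the other arrays (-7.82 to -4.85). Plk1, a kinase of spindle assembly, ranged from -3.01 to -2.59 on the NPRA-/- arrays and, at its highest on replicate 3, from -3.33 to -2.03 on the NPRA+/+ arrays. Aurka, the centrosome kinase, ranged from -2.47 to -2.25 on the NPRA-/- arrays and from -3.08 to -1.99 on the NPRA+/+ arrays, again highest on replicate 3. Their fitted changes were 0.10 ± 0.29 and 0.23 ± 0.23 (limma, adjusted p = 0.896 and 0.625).

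On their representing probes all 4 genes of the spindle checkpoint and anaphase had their highest level on NPRA+/+ replicate 3. For Mad2l1 the lead over the next array was 0.05. Bub1 stood at -4.69, -5.50 and -5.06 on the NPRA-/- arrays and at -5.31, -6.36, -3.62, -6.27 and -5.47 on the NPRA+/+ arrays. Bub1b encodes BubR1, which delays anaphase until chromosomes are attached, and stood at -5.09, -4.81 and -4.89 on the NPRA-/- arrays and at -5.14, -4.88, -3.98, -5.15 and -4.94 on the NPRA+/+ arrays. For Bub1b 7 arrays lay within -5.15 to -4.81, and the eighth, NPRA+/+ replicate 3, stood apart. Cdc20, the activator of the anaphase-promoting complex, stood at -1.39, -1.91 and -1.73 on the NPRA-/- arrays and at -2.06, -2.21, -1.15, -2.13 and -2.02 on the NPRA+/+ arrays. The fitted changes were 0.32 ± 0.59 for Bub1, -0.11 ± 0.27 for Bub1b and 0.24 ± 0.26 for Cdc20 (limma, adjusted p = 0.811, 0.864 and 0.667). Relative to probes of like signal they were -0.27, -0.64 and 0.09. Without NPRA+/+ replicate 3 the fitted changes were 0.77 ± 0.33, 0.10 ± 0.15 and 0.43 ± 0.17 (limma, adjusted p = 0.291, 0.791 and 0.252).

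Mad2l1, the checkpoint protein Mad2, gave 3 probes that did not move together. The brightest had a fitted change of -0.09 ± 0.19 (limma, adjusted p = 0.840). On the second the genotypes did not overlap, with -1.56, -1.53 and -1.57 on the NPRA-/- arrays and -1.93, -1.98, -2.18, -2.23 and -2.46 on the NPRA+/+ arrays, a fitted change of 0.60 ± 0.15 (limma, adjusted p = 0.094). The remaining one stood at -1.26 on NPRA+/+ replicate 1 and between -3.44 and -2.90 on the 7 other arrays, lowest on NPRA+/+ replicate 3.

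**Figure D2:**
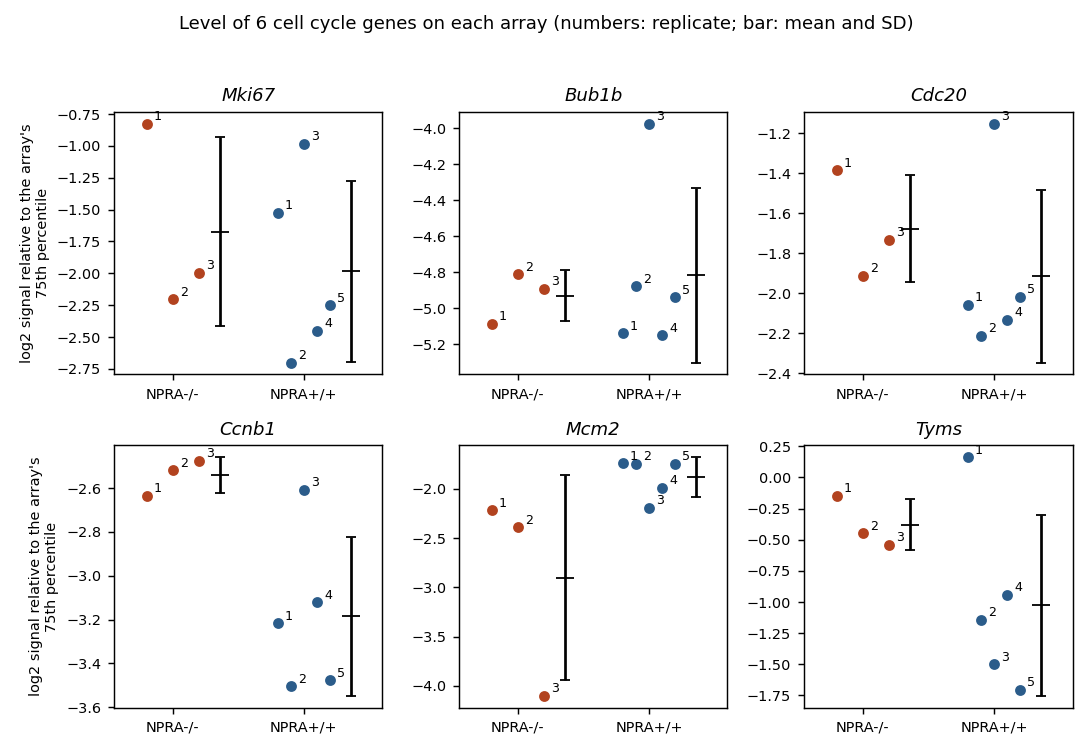
Level of 6 cell cycle genes on each array, as log2 signal relative to the 75th percentile of the array, NPRA-/- left (3 arrays) and NPRA+/+ right (5 arrays), with replicate numbers beside the points and the mean and SD as bars. NPRA+/+ replicate 3 stands above the other NPRA+/+ arrays for Mki67, Bub1b, Cdc20 and Ccnb1, Mcm2 is lowest on NPRA-/- replicate 3 (-4.10), and Tyms is highest on NPRA+/+ replicate 1 (0.16).

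The cyclins and the kinase of the entry into S phase showed 3 different orders of the arrays. Ccna2, cyclin A2, which acts in S phase and G2, followed Mki67, at -1.81, -2.83 and -2.63 on the NPRA-/- arrays and at -2.55, -3.14, -1.83, -3.43 and -3.14 on the NPRA+/+ arrays (fitted change 0.39 ± 0.39; limma, adjusted p = 0.628). Ccne2, cyclin E2, stood at -4.49, -3.15 and -3.43 on the NPRA-/- arrays and at -2.59, -4.25, -4.04, -3.45 and -4.37 on the NPRA+/+ arrays. Its highest array was NPRA+/+ replicate 1 and its lowest NPRA-/- replicate 1, the 2 arrays scanned on days of their own. The fitted change was 0.05 ± 0.46 over all arrays (limma, adjusted p = 0.967) and 0.86 ± 0.15 within scan day 1 (limma, adjusted p = 0.0359), where quantile normalization gave 0.51 (limma, adjusted p = 0.145). Ccne1, cyclin E1, had a fitted change of 0.33 ± 0.21 (limma, adjusted p = 0.426), and its dimmer probe one of -0.24 ± 0.64. Cdk2, the kinase they bind, ranged from -3.33 to -3.03 on the NPRA-/- arrays and from -3.64 to -2.76 on the NPRA+/+ arrays, with a fitted change of -0.12 ± 0.22 (limma, adjusted p = 0.816).

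The genes of replication licensing and the replication fork varied less, with a median range over the arrays of 0.73 (log2). It was 1.09 over all members and 1.01 over all probes tested. Mcm2 and Cdc6 were exceptions, with ranges of 2.36 and 1.44. Ranges were not compared among probes of like signal. The proteins Mcm2 to Mcm7 form the ring-shaped helicase that is loaded on origins, Cdc6 helps to load it, and Pcna is the clamp that holds the polymerases on DNA. Mcm2 stood at -2.22, -2.39 and -4.10 on the NPRA-/- arrays and at -1.74, -1.75, -2.19, -1.99 and -1.74 on the NPRA+/+ arrays. Every NPRA-/- array lay below every NPRA+/+ array, at -2.22 against -2.19 for the closest pair, and replicate 3 lay far below the other 2. It averaged -2.90 ± 1.04 in NPRA-/- (SD, n = 3) and -1.88 ± 0.20 in NPRA+/+ myocardium (SD, n = 5), for a fitted change of -1.02 ± 0.40 (SE; limma, adjusted p = 0.214). Without NPRA-/- replicate 3 it was -0.42 (limma, adjusted p = 0.364). Mcm2 has 1 probe on this array, so no second probe bears on that value.

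The 5 other helicase subunits lay close to 0. Their fitted changes were -0.12 ± 0.20 for Mcm3, -0.11 ± 0.18 for Mcm4, 0.17 ± 0.14 for Mcm5, 0.23 ± 0.16 for Mcm6 and -0.01 ± 0.18 for Mcm7, with adjusted p from 0.480 to 0.978 (limma). Mcm5 varied least among the NPRA+/+ arrays of all members, with an SD of 0.07 over -2.78, -2.66, -2.60, -2.64 and -2.64, against an SD of 0.24 over -2.77, -2.34 and -2.37 on the NPRA-/- arrays. Pcna stood at 2.11, 2.93 and 2.62 on the NPRA-/- arrays and at 2.45, 2.86, 2.80, 2.96 and 2.75 on the NPRA+/+ arrays. Its lowest arrays were NPRA-/- replicate 1 and NPRA+/+ replicate 1, where cardiomyocyte markers were high on the scale used here. The fitted change was -0.21 ± 0.21 (limma, adjusted p = 0.622). Cdc6 ranged from -5.86 to -4.42 on the NPRA-/- arrays and from -5.71 to -4.48 on the NPRA+/+ arrays (fitted change -0.14 ± 0.38; limma, adjusted p = 0.878). Relative to probes of like signal the change of Cdc6 was -0.67. As a set the 8 genes had a median fitted change of -0.11, and 6 of the 8 were negative.

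Of the 3 genes of nucleotide supply, none of which passed the threshold, 2 were high on the arrays of scan days 3 and 4. Tyms, thymidylate synthase, makes the thymidine nucleotide that DNA needs. It stood at -0.15, -0.45 and -0.54 on the NPRA-/- arrays and at 0.16, -1.14, -1.50, -0.94 and -1.71 on the NPRA+/+ arrays. All 3 NPRA-/- arrays lay above 4 of the 5 NPRA+/+ arrays, and NPRA+/+ replicate 1 lay above all of them. The fitted change was 0.65 ± 0.39 over all arrays (SE; limma, adjusted p = 0.405), 0.94 without NPRA+/+ replicate 1 (limma, adjusted p = 0.0356) and 0.83 ± 0.15 within scan day 1 (limma, adjusted p = 0.0402). Within scan day 1 after quantile normalization it was 0.72 (limma, adjusted p = 0.081).

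Rrm1, the large subunit of ribonucleotide reductase, stood at -0.15, -0.74 and -1.24 on the NPRA-/- arrays and at -0.20, -1.16, -1.17, -1.19 and -1.19 on the NPRA+/+ arrays. NPRA+/+ replicate 1 stood apart from the other 4 NPRA+/+ arrays, which lay between -1.19 and -1.16, and NPRA-/- replicate 1 was the highest of its genotype. The fitted change was 0.27 ± 0.32 (limma, adjusted p = 0.688). Rrm2, the small subunit that is limiting for the enzyme in S phase, did not share that pattern and ranged from -1.59 to -1.38 on the NPRA-/- arrays and from -1.88 to -1.42 on the NPRA+/+ arrays (fitted change 0.22 ± 0.14; limma, adjusted p = 0.436). On the scale used here cardiomyocyte markers were also highest on NPRA-/- replicate 1 and NPRA+/+ replicate 1. After quantile normalization their median there was 0.15 and 0.12, beside 0.17 and 0.16 on NPRA-/- replicates 2 and 3. Relative to probes of like signal it was then 0.23 and 0.28, above the other arrays. The quantile-normalized median of the nucleotide genes stayed high on both, at 0.58 and 0.61. The part of cardiomyocyte markers in the levels of Tyms and Rrm1 was not tested.

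The G1 cyclins and kinases had the smallest median range over the arrays of the 8 roles, 0.65 (log2), beside 1.01 over all probes tested. Ccnd1, Ccnd2 and Ccnd3 encode the D cyclins through which growth signals reach the cycle. Ccnd1 stood at 0.57, 0.74 and 1.1 on the NPRA-/- arrays and at 0.33, 1.14, 1.61, 1.01 and 1.12 on the NPRA+/+ arrays (fitted change -0.24 ± 0.27; limma, adjusted p = 0.680). NPRA+/+ replicate 3 was its highest array and NPRA+/+ replicate 1 its lowest. Ccnd2 and Ccnd3 had fitted changes of 0.14 ± 0.18 and -0.05 ± 0.14 (limma, adjusted p = 0.714 and 0.881).

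Cdk4, the kinase partner of the D cyclins, spanned 2.24 to 2.39 on the NPRA-/- arrays and 2.12 to 2.55 on the NPRA+/+ arrays, with a fitted change of 0.02 ± 0.14 (limma, adjusted p = 0.956). On a second Cdk4 probe every NPRA-/- array lay below every NPRA+/+ array, with a fitted change of -0.30 ± 0.12 (limma, adjusted p = 0.222). The third and dimmest went the other way, with 0.34 ± 0.31 (limma, adjusted p = 0.593). Cdk6 stood at -5.43, -3.97 and -3.89 on the NPRA-/- arrays and at -5.82, -4.23, -4.41, -4.35 and -4.35 on the NPRA+/+ arrays. Both replicate 1 arrays, on which it was not well above background, were its lowest (fitted change 0.20 ± 0.47; limma, adjusted p = 0.859).

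Neither of the CDK inhibitors passed the threshold. Cdkn1a encodes p21, a target of p53, and stood at -1.68, -1.30 and -1.09 on the NPRA-/- arrays and at -2.35, -1.86, -1.65, -1.36 and -1.46 on the NPRA+/+ arrays. The fitted change was 0.38 ± 0.25 over all arrays (limma, adjusted p = 0.443) and 0.56 ± 0.13 within scan day 1 (limma, adjusted p = 0.0618), while the second Cdkn1a probe had one of -0.20 ± 0.23. Cdkn1b, p27, stood at 2.19, 2.03 and 1.94 on the NPRA-/- arrays and at 2.27, 1.69, 1.74, 1.90 and 1.78 on the NPRA+/+ arrays. All 3 NPRA-/- arrays lay above 4 of the 5 NPRA+/+ arrays (fitted change 0.18 ± 0.16; limma, adjusted p = 0.599).

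**Figure D3:**
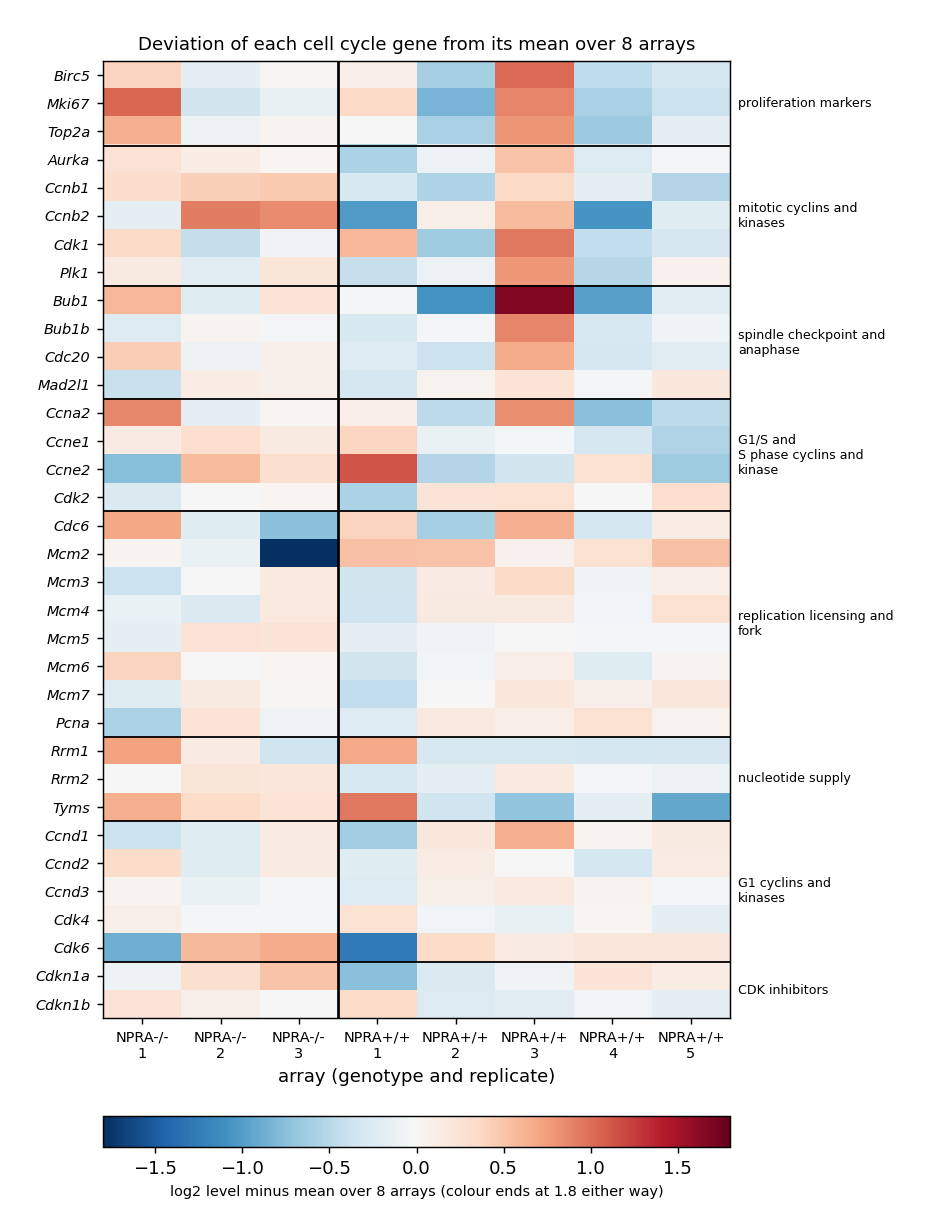
Deviation of each of 34 cell cycle genes (rows, grouped by role) from its own mean over the 8 arrays (columns, NPRA-/- left of the line, NPRA+/+ right), as a log2 difference shown by colour. The column of NPRA+/+ replicate 3 is red through the proliferation markers, mitotic and spindle genes and Ccna2, where NPRA-/- replicate 1 is high for Mki67, Top2a and Ccna2.

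The arrays also differed within a genotype. On NPRA+/+ replicate 3, 12 of the 34 members had their highest level, where 10.4% of all 19053 genes tested had theirs. Of the 12 proliferation markers, mitotic genes and spindle genes, 9 were highest there, and the other 3 (Mki67, Ccnb1 and Ccnb2) were highest on an NPRA-/- array. NPRA+/+ replicate 1 was the lowest array for 11 of the 34 members, with a median deviation of -0.23 over all members beside 0.22 on replicate 3, or -0.09 beside 0.26 relative to probes of like signal. On NPRA+/+ replicate 3 all 12 were above their own mean. Their median deviation from the mean was 0.78 on NPRA+/+ replicate 3, and it was 0.33 on NPRA-/- replicate 1 and between -0.47 and 0.07 on the other 6 arrays. Relative to probes of like signal it was 0.92 on NPRA+/+ replicate 3, 0.08 on NPRA-/- replicate 1, and between -0.37 and 0.02 on the others.

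NPRA+/+ replicate 2, which shared scan day and scan time with replicate 3, lay at the other end. It was the lowest array for 6 of these 12 genes. Replicate 3 exceeded replicate 2 by 1.72 for Mki67, 1.62 for Birc5, 1.59 for Cdk1, 1.37 for Top2a and 1.06 for Cdc20 on the log2 scale, and Bub1 was not well above background on replicate 2. These are 2 single arrays of 1 genotype whose source names share a replicate number, and no test was made of their difference. After quantile normalization 17 of the 34 members, 11 of these 12 among them, were highest on NPRA+/+ replicate 3, where 14.9% of all genes were. The other probes of these genes followed less closely. Of 9 other tested probes (of Mki67, Birc5, Ccnb1, Cdk1 and Mad2l1), 1 was highest on that array and 5 were above the mean of the other NPRA+/+ arrays.

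The replication and nucleotide genes stood higher on NPRA+/+ replicate 3 by less. Of these 11 genes 9 were above their own mean there, among them all 8 of licensing and the fork. Their median deviation relative to probes of like signal was 0.14 on NPRA+/+ replicate 3 and between -0.12 and 0.10 on the other arrays. Among them 1 (Mcm3, at 0.37) was highest on that array, and 3 after quantile normalization. The difference between these genes and the mitotic ones is a description of 1 array.

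**Figure D4:**
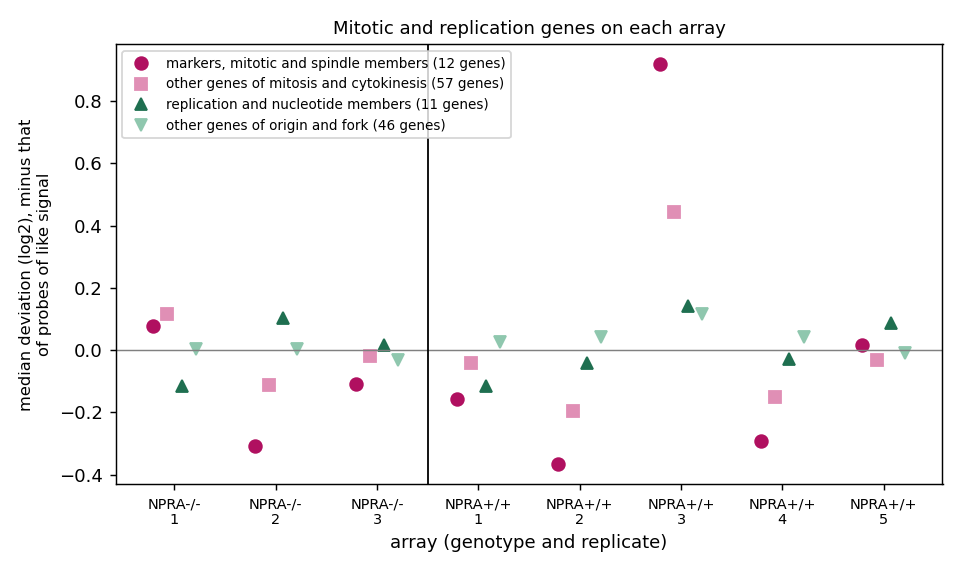
Median deviation of 4 gene groups from their means on each array, minus that of probes of like signal (log2), NPRA-/- arrays left of the line and NPRA+/+ arrays right. On NPRA+/+ replicate 3 the 12 markers, mitotic and spindle genes reach 0.92 and 57 other genes of mitosis 0.44, while the 11 replication and nucleotide genes and 46 other genes of the origin and fork reach 0.14 and 0.12.

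Genes of the same processes outside the 35 were also high on that array. Of 57 other genes of mitosis and cytokinesis tested, 27 were highest on NPRA+/+ replicate 3, and 39 after quantile normalization. Among these Pbk, a mitotic kinase, stood at -4.56, -5.37 and -5.11 on the NPRA-/- arrays and at -5.15, -5.93, -3.72, -6.08 and -5.40 on the NPRA+/+ arrays. Ckap2, a spindle protein, stood at -3.94, -5.11 and -4.81 on the NPRA-/- arrays and at -4.33, -5.70, -3.03, -5.39 and -4.77 on the NPRA+/+ arrays. For both, NPRA+/+ replicate 3 was highest and NPRA-/- replicate 1 next. Of 46 other genes of the replication origin and fork, 6 were highest on that array, and 15 after quantile normalization, with 31 and 38 above their own mean.

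Genes were also ranked on every array by their lead, the distance from the highest array to the second highest. Among the 50 genes with the largest lead on NPRA+/+ replicate 3, 11 were members or genes of the 3 other cell cycle lists, and 20 were after quantile normalization. These lists hold 174 genes, or 0.913% of the genes tested. Among the 50 leading genes of each of the other 7 arrays 0 were, under either scaling. Bub1 had the largest lead of all genes on that array, 1.07, or 1.66 after quantile normalization. The members among the first 50 were Bub1, Bub1b, Birc5, Plk1 and Ccnd1, and after quantile normalization Bub1, Birc5, Bub1b, Top2a, Cdk1 and Plk1.

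**Figure D5:**
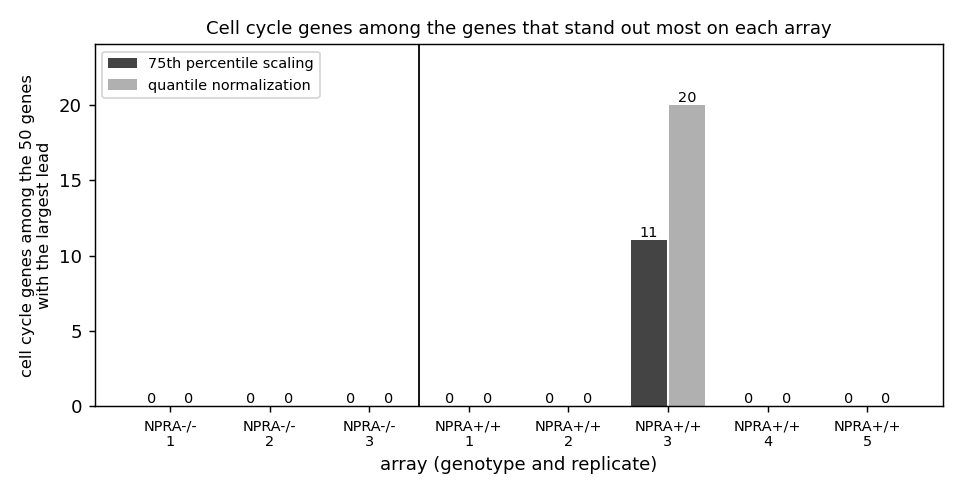
Number of cell cycle genes among the 50 genes with the largest lead over the second highest array, for each of the 8 arrays (NPRA-/- left of the line, NPRA+/+ right), with signals scaled to the 75th percentile (dark bars) or quantile-normalized (light bars). NPRA+/+ replicate 3 has 11 and 20, and each other array has 0.

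Between the genotypes the other cell cycle lists gave no calls either, at 0 higher and 0 lower in each. Of the 46 genes of the replication origin and fork, limma at an unadjusted p under 0.05 had 5 higher and 1 lower, against 18.3% and 1.36% of all probes. The lower 1 was Pole, the catalytic subunit of DNA polymerase epsilon, at -2.50, -0.53 and -0.81 on the NPRA-/- arrays and at 0.48, 0.52, 0.69, 1.67 and 1.78 on the NPRA+/+ arrays. The genotypes did not overlap, and the fitted change was -2.31 ± 0.51 (SE; limma, adjusted p = 0.080). Within scan day 1 Pole was lower by the test, with a change of -1.28 (limma, adjusted p = 0.024). Mcm10, a replication initiation factor, had a fitted change of 0.51 ± 0.15 (limma, adjusted p = 0.124), and of 0.14 after quantile normalization.

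Of the 57 genes of mitosis and cytokinesis, limma at an unadjusted p under 0.05 had 5 higher and 0 lower, a share of higher genes below the 18.3% of all probes. The 3 with the smallest p were Ect2, a regulator of cytokinesis (0.61 ± 0.16), Dlgap5, a spindle protein (1.38 ± 0.37), and Ncapg, a condensin subunit (1.20 ± 0.42), with adjusted p of 0.099, 0.103 and 0.174 (limma). Dlgap5 and Ncapg were above background on 6 of the 8 arrays each. Of 37 genes of cell cycle transcription and kinase control, 4 were higher and 0 lower at that level, again a share below that of all probes, led by Chek2, a DNA damage checkpoint kinase. Chek2 stood at -2.34, -2.42 and -2.30 on the NPRA-/- arrays and at -2.72, -3.08, -2.91, -3.01 and -3.10 on the NPRA+/+ arrays, with no overlap (fitted change 0.61 ± 0.13; limma, adjusted p = 0.076). The median fitted changes of these 3 lists were 0.11, 0.24 and 0.15, and relative to probes of like signal -0.02, -0.05 and -0.02.

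The 6 other CDK inhibitors had no gene at an unadjusted p under 0.05. Of 23 genes of the p53 pathway 0 were higher and 1 lower at that level, Rrm2b, the p53-dependent subunit of ribonucleotide reductase (fitted change -0.49 ± 0.17; limma, adjusted p = 0.167). Of 40 genes of replication-dependent histones, which are made in S phase, 6 were higher and 2 lower at that level, against 18.3% and 1.36% of all probes. H3c7, which encodes histone H3, stood at -0.31, -0.26 and -0.29 on the NPRA-/- arrays and at 0.41, 0.38, 0.68, 0.52 and 0.71 on the NPRA+/+ arrays, with no overlap (fitted change -0.83 ± 0.13; limma, adjusted p = 0.051). Many histone genes have near-identical copies, whose signals a probe may not separate.

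Markers of the cell types a heart sample can hold were set beside the high mitotic genes of NPRA+/+ replicate 3. Relative to probes of like signal, the median deviation on that array was 0.08 for 8 endothelial markers, -0.01 for 7 fibroblast markers, 0.03 for 6 macrophage markers, 0.05 for 7 erythroid markers and 0.10 for 6 B cell markers. It was -0.23 for 9 T cell and thymocyte markers, -0.08 for 8 markers of neutrophils and their granule precursors, and -1.41 for 5 adipocyte markers, which were also low on NPRA-/- replicate 2 (-1.29). None of these lists was as far above its mean on that array as the mitotic genes. Between the genotypes, T cell and thymocyte markers had a median fitted change of 0.56, or 0.24 relative to probes of like signal, and Rag1, a gene of developing lymphocytes, one of 1.13 ± 0.24 (limma, adjusted p = 0.075), with a signal above background on 3 of the 8 arrays. The summed level of 7 mesothelial markers, of which 6 were tested, lay between 0.26 and 0.82 on the NPRA-/- arrays. On the NPRA+/+ arrays it lay between -0.53 and 0.01. The part of these cell types in the levels of the cell cycle genes was not tested.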

How the data were processed

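Myocardium of 8 samples was measured on 1 Agilent array each, labelled with Cy3. The authors deposited scanner output with a linear intensity for each spot, from which the background of its array had been subtracted, per the file headers; the submitters' processing notes name Agilent Feature Extraction 11.0.1.1. The deposited series table holds log2 values, with no normalization stated; its columns all had a median of 7.05 and it served as an alternative.

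Outlier-flagged spots were left out, the spots of each probe averaged, and log2 signals set relative to the 75th percentile of their array. A probe entered the test if 3 or more of the 8 arrays had it well above background (35329 of 39429), with limma 3.58.1 in R 4.3.3, genotype as the only term, two-sided, Benjamini-Hochberg over all probes, threshold 0.05. The SE is that of the fit. Probes were named through RefSeq accessions (GRCm38.p6), 27234 with 1 symbol and 12195 with none. Skp2 and Cd68, 2 genes of the other lists, had no probe matched. Probes of like signal are those in the same of 20 bins of mean signal. The members, the gene lists and the rule for named genes (all members, Npr1, of other lists the 3 genes of smallest p and up to 3 of the brightest cell type markers) were chosen with earlier results of these data known, and genes of the lists that led on NPRA+/+ replicate 3 were named after their values were seen. 1 gene that the rule names is not reported here.

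The labels do not link samples to animals, so a p-value reflects how these samples spread, which may be technical in part. The labels number the samples as repetitions, and deviations of equally numbered samples correlated by 0.63, 0.28 and 0.36 across probes; numbers in the source names gave 0.35, 0.12 and 0.30. Numbers 2 and 3 share scan day 1, and the labels name no litter or batch behind a number. The analysis was checked on simulated data with the spread of the real probes. Of 50 probes each changed by 1, 2, 3 and 4 (log2), limma called 40%, 78%, 88% and 90%. Of its 160 calls, 12 were false. A change of 1 would thus often be missed with these arrays.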

Additional observations from a re-analysis of the deposited data

Results flagged for a closer look

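For each member the NPRA+/+ arrays were searched for 1 array far from the other 4, by the gap to the nearest of them as a share of the whole range (Dixon's 95% critical value). Chance flags about 1 in 20 groups, and 14.0% of all probes tested were flagged, so 4 of 34 members (11.8%) is no excess. Bub1b, the checkpoint kinase BubR1, was high on NPRA+/+ replicate 3 at -3.98. Cdc20, the activator of the anaphase-promoting complex, was high on the same array at -1.15. Among all probes 61 (0.173%) were flagged as high on that array, and 2 of the 34 members (5.88%). Rrm1, the large subunit of ribonucleotide reductase, was high on NPRA+/+ replicate 1 at -0.20. On the same scale cardiomyocyte markers were high there too. Cdk6, a G1 kinase, was low on NPRA+/+ replicate 1 at -5.82, where it was not well above background. The cause of these values was not tested.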

How the results depend on the processing

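The count of members called stayed at 0 lower under every setting run. It stayed at 0 of 34 higher except within scan day 1 (2, Ccne2 and Tyms), with array weights (6, which added Ccne1, Mcm5, Ccnb1 and Cdkn1a) and without NPRA+/+ replicate 1 (1, Tyms). In the same order, these settings called 5494, 8808 and 3901 of all 35329 probes tested higher. Leaving out 1 array gave 0 to 1 members called higher, 0 to 3901 probes called higher and 0 to 187 lower, with the most without NPRA+/+ replicate 1. Over all probes, 113 were called higher and 10 lower, and 0 and 0 with quantile normalization, scaling to the median, normexp, the deposited series table, scan day as a block, slide as a random block, replicate block by repetition number, NPRA+/+ arrays of 1 source name number averaged, an intensity trend, and quantile normalization with scan day 1 alone or without NPRA+/+ replicate 3. The replicate block by source name number gave 1 and 21, array weights 8808 and 749, scan day 1 alone 5494 and 485, and the arrays of scan days 1 and 2 3954 and 180. Without a filter on dim probes 183 were called higher, and with a filter of 8 of 8 arrays above background 3 higher and 0 lower. The replicate block changed no call of a member. The median fitted change of the members, 0.16, was -0.073 with quantile normalization, -0.13 with scaling to the median, -0.045 with normexp, -0.064 in the series table, -0.11 with scan day as a block and within scan day 1, -0.15 there after quantile normalization, and -0.070 relative to probes of like signal. Over the alternatives the fitted change of 24 of the 34 members changed sign at least once, in 133 of 916 values, none of them called. Settings that split scan days 1 and 2 from 3 and 4, quantile normalization within scan day 1 and quantile normalization without NPRA+/+ replicate 3 were chosen after seeing the data. The cause of these differences was not tested. Only scan day 1 held both genotypes, with 2 arrays of each.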

Other observations

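Values outside the comparisons concern the transcription factors of these genes. E2f1, an activator of replication genes, stood at -3.89, -3.97 and -3.92 on the NPRA-/- arrays and at -4.04, -4.43, -3.89, -4.57 and -4.29 on the NPRA+/+ arrays. Foxm1, an activator of mitotic genes, stood at -3.29, -4.25 and -4.05 on the NPRA-/- arrays and at -3.92, -4.50, -3.96, -4.82 and -4.65 on the NPRA+/+ arrays. Foxm1 was highest on NPRA-/- replicate 1, the array with the highest Mki67. On NPRA+/+ replicate 3 Foxm1 was 0.52 above the mean of the other 4 NPRA+/+ arrays, beside 1.25 for Mki67. Both genes were named after their values were seen.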
